A study of Mus musculus with 16 samples.

Results

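Cyclic nucleotide phosphodiesterases, the enzymes that degrade cAMP and cGMP, are described by 10 genes, found by symbol among the 55291 genes of the count table: Pde9a, Pde6c, Pde5a, Pde2a, Pde3b, Pde4b, Pde4d, Pde7a, Pde8a and Pde10a. Pde9a and Pde6c were selected on their measured counts, for changing in opposite directions with loss of Arid1a. Their values in every comparison of Arid1a loss with WT are therefore a description without a test. The other 8 members were listed by family, and all counts of members below are over these 8. All 10 passed the low-count filter. In GENCODE M21 (GRCm38) Pde9a lies at chr17:31386210-31476310 and Pde6c at chr19:38132781-38183958. Pde5a (chr3:122728947-122859374), Pde4d (chr13:108449948-109953461), Pde3b (chr7:114415281-114539251), Pde4b (chr4:102087543-102607259), Pde8a (chr7:81213596-81334533) and Pde10a (chr17:8525372-8986648) are those of the other 8 members that had a call. Counts are over whole genes, all annotated exons together.

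Polyadenylated RNA was sequenced from mouse liver tumours and livers, with 2 biological replicates in each of 8 groups. Arid1a and Arid1b encode alternative subunits of the BAF chromatin remodelling complex. The tumours are labelled Arid1a KO/BcatEXON, carry no time point and are called tumours here. At 30 days after tamoxifen, livers came from Arid1a KO mice given an agonist, WT mice given the agonist, Arid1a KO mice given vehicle (DMSO) and WT mice given vehicle. At 9 days, vehicle livers came from Arid1a/b DKO, Arid1a KO and WT mice. The agonist's target is spelled NR1L3, which is not a receptor symbol. Titles of the agonist-treated WT livers say 9 days and their other labels 30 days; 30 days was used. Descriptions label the WT libraries ALB_WT, without saying what ALB stands for. The sources used here do not name the promoter that drives the tamoxifen-induced deletion or say whether animals were pooled. The labels name hepatocytes as the cell type, but whole tissue was taken, so that fewer cells of a type and less RNA per cell cannot be told apart.

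Phosphodiesterases end cyclic nucleotide signals by hydrolysing cAMP or cGMP to the plain nucleotide. Adenylyl cyclases make cAMP, for example when glucagon acts on hepatocytes, and cAMP acts through protein kinase A and the EPAC exchange factors. Guanylyl cyclases make cGMP in answer to nitric oxide or natriuretic peptides, and in liver this signal is best known from the vessel wall and stellate cells. Families differ in substrate: PDE5, PDE6 and PDE9 cleave cGMP, PDE4, PDE7 and PDE8 cleave cAMP, and PDE2, PDE3 and PDE10 cleave both.

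Libraries held 7.57 to 47.77 M counts (M for mega), and replicate 1 was the shallower library in each group. All 6 hepatocyte markers were detected in each of the 8 groups. Tumour replicate 1 stood apart from replicate 2: it had counts for 26729 genes at 7.57 M counts, and replicate 2 for 24059 genes at 20.0 M. Tumour results are given without replicate 1 where that changes a call. Whole-gene counts of Arid1a include exons outside any deleted part and check no genotype label. Levels are CPM, counts per M counts of a library after TMM scaling. Differences between groups are on the log2 scale with a standard error (SE). A call means an adjusted p under 0.05, over every gene tested, in edgeR's quasi-likelihood test. Groups are said not to overlap where both libraries of a group lie above both libraries of the other. The share of all genes doing so was not counted, so this is a description only.

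Pde8a and Pde3b had the highest levels of the family in WT liver. Per kilobase of exon, over the 6 WT livers, Pde8a averaged 16.8 ± 2.44 CPM per kb and Pde3b 16.1 ± 4.28 CPM per kb (SD, n = 6). Pde9a followed at 6.76 ± 2.99, Pde4b at 2.50 ± 0.978 and Pde7a at 1.69 ± 0.313 CPM per kb. Pde6c (0.532 ± 0.577), Pde4d (0.487 ± 0.184) and Pde5a (0.221 ± 0.0751 CPM per kb) were lower, and Pde2a and Pde10a lowest, at 0.0928 ± 0.0641 and 0.0581 ± 0.0213 CPM per kb. Neighbours in this order overlapped over the 6 livers, except Pde3b above Pde9a, Pde9a above Pde4b and Pde4d above Pde5a.

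Promoter windows of 4 members are shown because they belong to members that were called higher (Pde5a, Pde4d) or lower (Pde8a, Pde4b) in tumours than in Arid1a KO or WT livers and have a RefSeq entry. Each runs from 250 bases before to 50 bases after a RefSeq transcript start (GRCm38.p6, plus strand). Capitals mark TGACG on either strand, the core of the cAMP response element (CRE) that CREB proteins bind.
Pde5a: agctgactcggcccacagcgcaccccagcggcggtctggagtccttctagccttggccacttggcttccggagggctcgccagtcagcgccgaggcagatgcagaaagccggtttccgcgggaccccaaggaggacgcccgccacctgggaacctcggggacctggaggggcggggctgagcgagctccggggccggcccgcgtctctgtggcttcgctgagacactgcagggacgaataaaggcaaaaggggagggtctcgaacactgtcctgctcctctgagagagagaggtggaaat
Pde4d: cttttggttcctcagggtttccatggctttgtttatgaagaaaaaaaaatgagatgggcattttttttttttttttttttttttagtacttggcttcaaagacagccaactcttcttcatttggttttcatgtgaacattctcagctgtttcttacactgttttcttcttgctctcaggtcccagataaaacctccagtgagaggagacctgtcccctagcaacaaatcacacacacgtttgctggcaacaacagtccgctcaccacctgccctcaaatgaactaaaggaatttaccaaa
Pde8a: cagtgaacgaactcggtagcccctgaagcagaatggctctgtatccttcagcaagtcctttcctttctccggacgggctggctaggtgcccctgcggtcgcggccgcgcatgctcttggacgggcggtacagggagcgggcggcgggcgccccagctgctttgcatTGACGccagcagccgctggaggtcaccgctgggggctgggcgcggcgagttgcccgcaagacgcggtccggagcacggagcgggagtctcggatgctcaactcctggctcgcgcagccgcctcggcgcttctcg
Pde4b: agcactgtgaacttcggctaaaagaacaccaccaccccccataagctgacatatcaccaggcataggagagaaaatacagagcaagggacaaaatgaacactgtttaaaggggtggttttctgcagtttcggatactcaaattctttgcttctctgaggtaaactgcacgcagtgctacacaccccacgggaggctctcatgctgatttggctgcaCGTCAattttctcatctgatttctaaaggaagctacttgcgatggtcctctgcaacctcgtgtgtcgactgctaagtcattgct
The Pde5a window is chr3:122728908-122729207 and the Pde4d window, at an internal start of a long gene, chr13:108653927-108654226. The Pde8a window is chr7:81213015-81213314. Pde4b has 4 windows, and the printed one, chr4:102421305-102421604, was picked because it holds a match. The core stood at -84 in Pde8a and -34 in Pde4b, counted from the start base as 0. It was in 3 of the 14 windows of the 6 members with an entry and in 20.8% of 32851 mouse promoter windows of 300 bases. The full element TGACGTCA was in 0 of the 14 and in 1.79% of all. A match is a description of the letters only. Of its letters, the Pde5a window was 66.3% G or C with 23 CpG pairs and the Pde4d window 39.7% with 2, against medians of 52.7% and 7 over all windows.

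Pde9a, a high-affinity phosphodiesterase of cGMP, was low in every library without Arid1a and high in every WT liver. At 9 days it stood at 0.148 and 0.201 CPM in Arid1a KO and at 19.5 and 15.8 CPM in WT livers. The KO values rest on 2 and 5 counts. At 30 days it stood at 0.114 and 0.401 CPM in Arid1a KO, on 1 and 11 counts, and at 36.4 and 18.4 CPM in WT livers. With the agonist it stood at 0.984 and 0.894 CPM in Arid1a KO and at 38.3 and 14.95 CPM in WT livers. No library of an Arid1a KO group reached the lowest WT library. By group mean, WT exceeded Arid1a KO 101-fold at 9 days, 106-fold at 30 days and 28.4-fold with the agonist. These sizes depend on single libraries. With a library left out the log2 at 30 days was -5.87 to -7.88, against -6.43 with all libraries. It was -6.42 to -6.85 at 9 days, against -6.57, and -4.00 to -5.35 with the agonist, against -4.81.

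Among groups, Pde9a was highest in WT vehicle livers at 30 days (27.4 ± 12.8 CPM), then in WT agonist livers (26.6 ± 16.5) and WT livers at 9 days (17.7 ± 2.63 CPM; SD, n = 2 each). Tumours (1.63 ± 2.02), Arid1a/b DKO (1.003 ± 0.168) and agonist-treated Arid1a KO livers (0.939 ± 0.0635 CPM) came next. Arid1a KO vehicle livers were lowest, at 0.258 ± 0.203 CPM at 30 days and 0.174 ± 0.0370 CPM at 9 days. Neighbours in this order overlapped, except WT at 9 days above tumours and agonist-treated Arid1a KO above Arid1a KO at 30 days. Tumour replicate 1 had 3.06 CPM and replicate 2 had 0.202 CPM.

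Every comparison of Pde9a that includes an Arid1a KO or WT group uses libraries on which the gene was chosen, so its other differences are also given without a test. It had 0.884 and 1.12 CPM in Arid1a/b DKO livers, on 37 and 70 counts, against 0.148 and 0.201 CPM in Arid1a KO livers at 9 days, and these groups did not overlap. In Arid1a KO livers Pde9a had 0.984 and 0.894 CPM with agonist and 0.114 and 0.401 CPM with vehicle, again without overlap. In tumours it had 3.06 and 0.202 CPM, against 0.114 and 0.401 CPM in Arid1a KO livers at 30 days, and these groups overlapped.

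Pde6c, the catalytic subunit of the cone photoreceptor phosphodiesterase, ran the other way. At 9 days it stood at 8.67 and 14.9 CPM in Arid1a KO and at 0 and 0.191 CPM in WT livers, where the 2 WT values rest on 0 and 6 counts. At 30 days it stood at 25.4 and 17.1 CPM in Arid1a KO and at 0.480 and 3.31 CPM in WT livers. With the agonist it stood at 3.44 and 11.9 CPM in Arid1a KO and at 1.45 and 4.04 CPM in WT livers, and these groups overlapped. The group means were 123-fold apart at 9 days, 11.2-fold at 30 days and 2.80-fold with the agonist. Single libraries decide these sizes. With a library left out the log2 was 2.67 to 5.46 at 30 days and 0.24 to 2.43 with the agonist, against 3.37 and 1.42 with all libraries. The higher value was without WT replicate 2 in both. The lower one was without WT replicate 1 at 30 days and without Arid1a KO replicate 2 with the agonist. At 9 days it was 5.92 to 6.80, against 6.45, and without WT replicate 2 no fold can be given, since WT replicate 1 had 0 counts.

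Arid1a/b DKO livers had the highest Pde6c, at 41.5 and 25.8 CPM (mean 33.7 ± 11.1 CPM; SD, n = 2). The lower of these was just above Arid1a KO replicate 1 at 30 days (25.4 CPM). Then came Arid1a KO at 30 days (21.3 ± 5.81), tumours (12.5 ± 10.9), Arid1a KO at 9 days (11.8 ± 4.42) and agonist-treated Arid1a KO (7.68 ± 5.99 CPM). The WT groups were lowest, at 2.74 ± 1.83 CPM with agonist, 1.90 ± 2.00 CPM at 30 days and 0.0955 ± 0.135 CPM at 9 days. Neighbours overlapped, except DKO above Arid1a KO at 30 days and WT at 30 days above WT at 9 days.

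Pde6h, the inhibitory subunit of the cone enzyme, stood at 0 and 0.0641 CPM in DKO, 3.04 and 0.602 CPM in Arid1a KO and 1.45 and 1.27 CPM in WT livers at 9 days. It was lower in DKO than in WT (edgeR adjusted p = 0.0077) and than in Arid1a KO (edgeR adjusted p = 0.00643). The DKO values rest on few counts, as 3 counts are 0.0628 CPM at the depth of DKO replicate 2, before TMM scaling. Pde6h had no counts in either agonist-treated WT liver, and was called higher in Arid1a KO there.

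**Figure D1:**
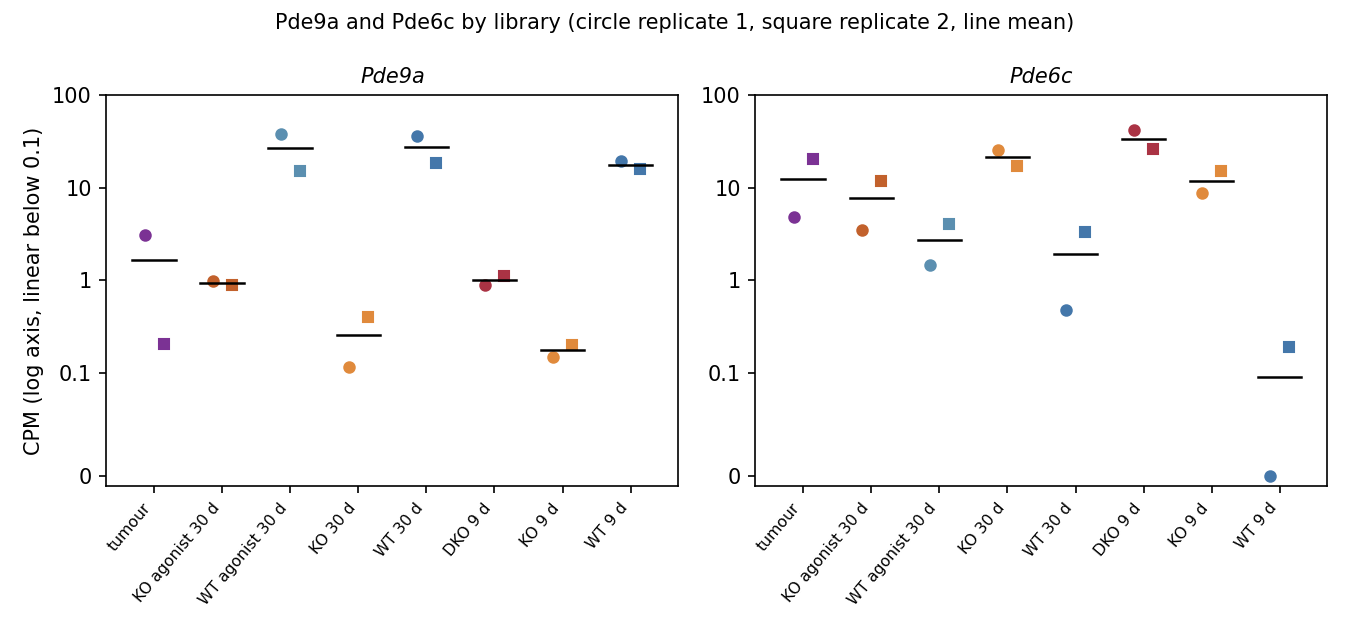
CPM of Pde9a and Pde6c in each library (points) with group means (lines), on a log axis that is linear below 0.1 CPM, for the 8 groups of 2 libraries. Pde9a lies between 14.95 and 38.3 CPM in the 6 WT livers and at or below 3.06 CPM elsewhere, and Pde6c is at most 4.04 CPM in WT livers.

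Loss of Arid1a alone asks what changes in liver soon after deletion and later. None of the other 8 members was called. At 9 days 0 of 8 were called (2 at an unadjusted p under 0.05, 0 in DESeq2), where 0.566% of 17831 genes were. Of all genes 1893 had an unadjusted p under 0.05 and DESeq2 called 487. Their median log2 was -0.27, against 0.00 over all genes tested. At 30 days 0 of 8 were called (2 at an unadjusted p under 0.05, 1 in DESeq2), where 0.516% of genes were, and the median was -0.21 against 0.03. Of all genes 1681 had such a p and DESeq2 called 407. The 2 members at an unadjusted p under 0.05 were Pde4b and Pde5a at either time. The times use separate libraries.

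Pde4b, a cAMP-specific enzyme of inflammatory and many other cells, had 6.15 and 9.31 CPM in Arid1a KO and 19.2 and 18.1 CPM in WT livers at 9 days. At 30 days it had 13.6 and 10.2 CPM in Arid1a KO and 37.0 and 18.9 CPM in WT livers. The groups did not overlap at either time, and neither difference was called. The log2 was -1.26 (SE 0.45, edgeR adjusted p = 0.320) in the 9-day livers and -1.23 (SE 0.45, edgeR adjusted p = 0.377) in the 30-day livers. Markers of macrophages, which also express Pde4b, summed at 9 days to 818 and 1775 CPM in Arid1a KO and 656 and 1244 CPM in WT livers, and their part in the Pde4b values was not tested. Pde5a, the cGMP-specific enzyme of smooth muscle that sildenafil inhibits, had 1.41 and 1.28 CPM in Arid1a KO and 2.17 and 2.99 CPM in WT livers at 9 days. At 30 days it had 0.686 and 0.766 CPM in Arid1a KO and 2.97 and 1.91 CPM in WT livers. These did not overlap either, with a log2 of -0.96 (SE 0.40, edgeR adjusted p = 0.413) in the earlier pair of groups and -1.71 (SE 0.43, edgeR adjusted p = 0.142) in the later one. At 30 days DESeq2 called Pde5a (adjusted p = 0.0496).

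With the agonist, 0 of 8 members were called between Arid1a KO and WT livers (4 at an unadjusted p under 0.05, 3 in DESeq2), where 4.95% of genes were. Over all genes 3827 of 17831 had an unadjusted p under 0.05 and DESeq2 called 1819. The median was -0.14 against -0.01 over all genes. Pde4b had 13.1 and 7.75 CPM in Arid1a KO and 41.7 and 23.3 CPM in WT livers (log2 -1.64, SE 0.45, edgeR adjusted p = 0.0636). Pde8a, a high-affinity cAMP phosphodiesterase, had 31.8 and 48.9 CPM in Arid1a KO and 68.2 and 83.8 CPM in WT livers (log2 -0.91, SE 0.26, edgeR adjusted p = 0.0706). Pde3b, the enzyme through which insulin lowers cAMP, had 107 and 129 CPM in Arid1a KO and 155 and 221 CPM in WT livers (log2 -0.66, SE 0.20, edgeR adjusted p = 0.0784). Each of these 3 was lower in both Arid1a KO libraries than in either WT library, though how many of all genes separated likewise was not counted. In the same livers hepatocyte markers summed to 10038 and 11277 CPM in Arid1a KO and 16833 and 14593 CPM in WT (0 of 6 called), and stellate and smooth muscle markers to 607 and 316 CPM in Arid1a KO and 145 and 131 CPM in WT (1 of 10 called, higher). Macrophage markers summed to 1186 and 697 CPM in Arid1a KO and 531 and 398 CPM in WT (0 of 8 called), and cholangiocyte markers to 343 and 230.3 CPM in Arid1a KO and 49.8 and 39.8 CPM in WT (1 of 6 called, higher). The part of these shifts in the member values was not tested. The fourth, Pde4d, had 19.0 and 14.3 CPM in Arid1a KO and 8.70 and 8.48 CPM in WT livers (log2 0.96, SE 0.34, edgeR adjusted p = 0.130). DESeq2 called Pde4b, Pde8a and Pde3b lower, with adjusted p of 0.00797, 0.0203 and 0.0271.

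**Figure D2:**
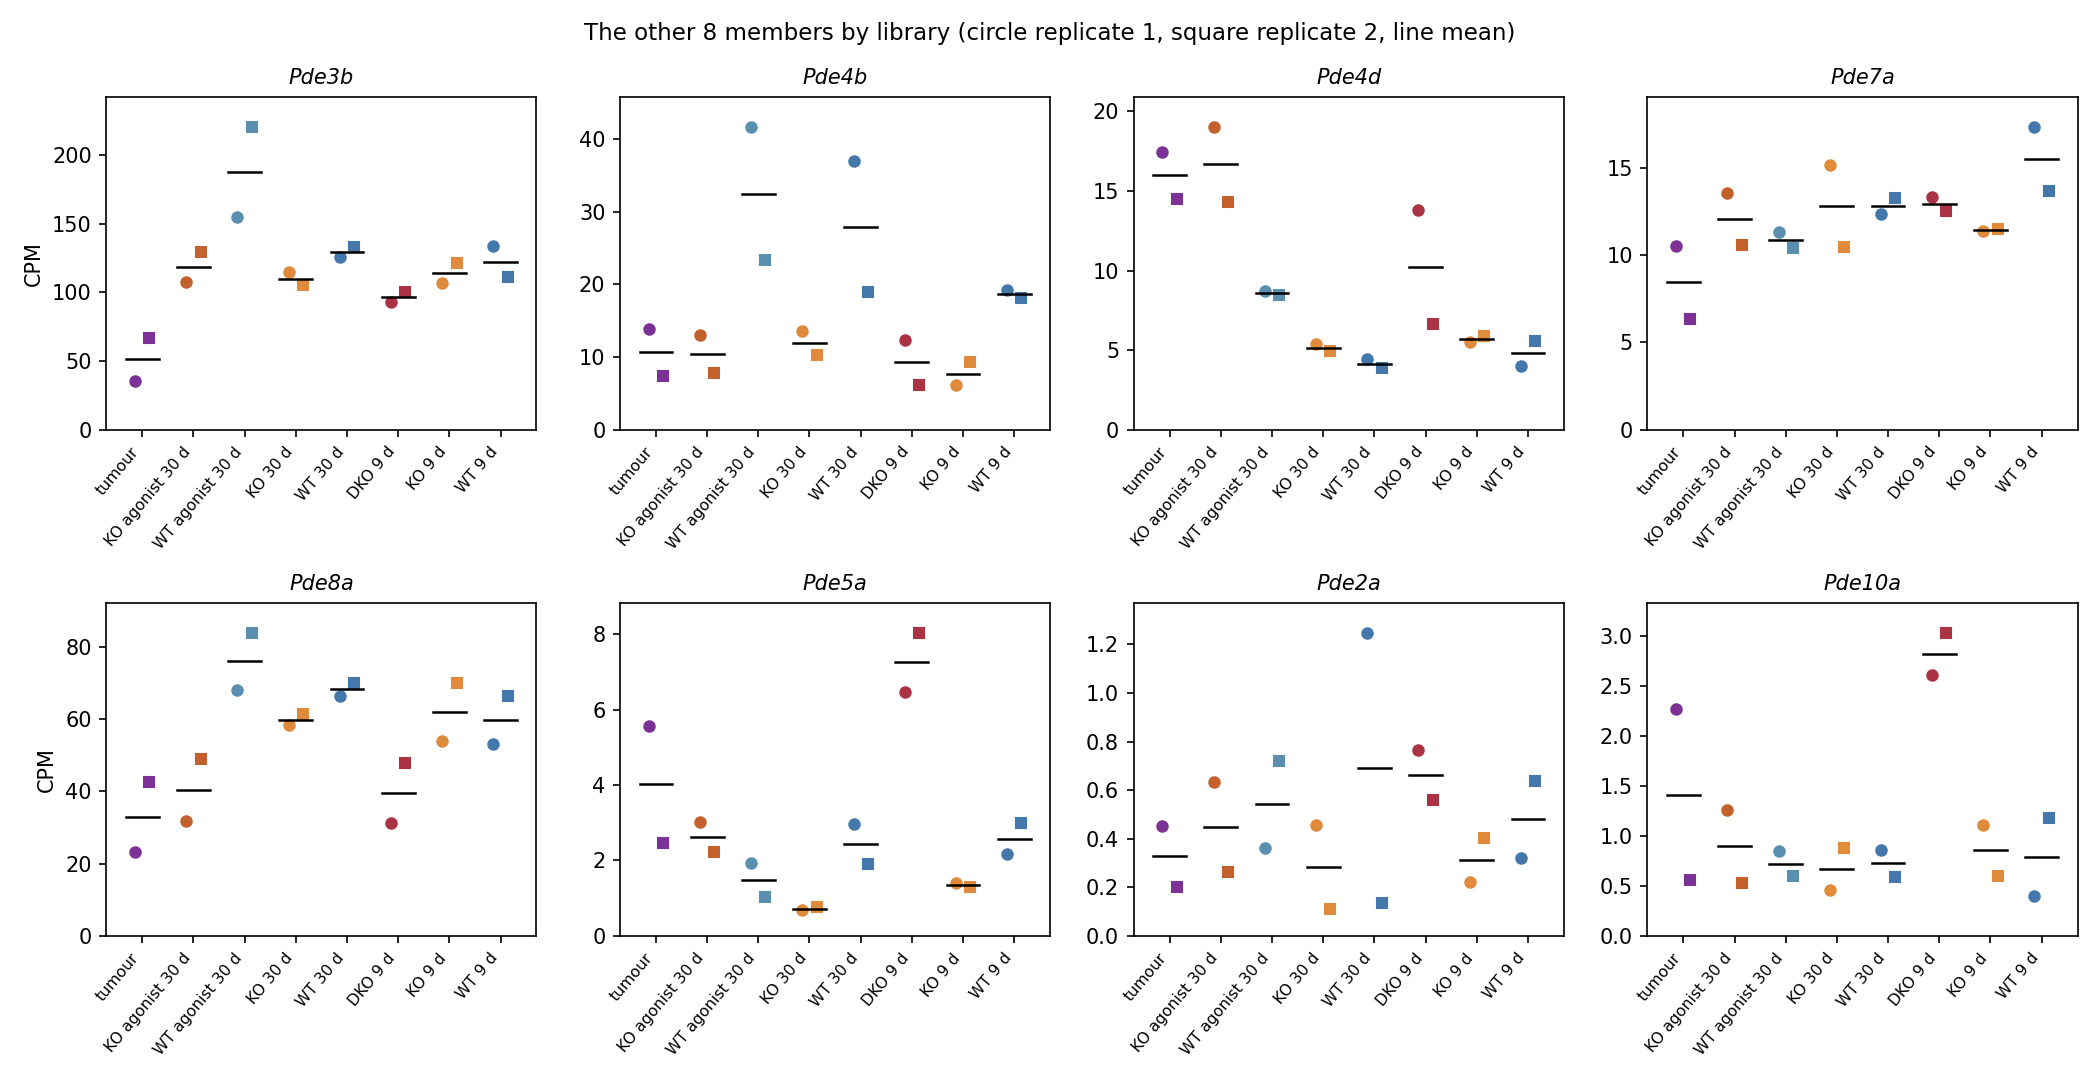
CPM of the other 8 members in each library (points) with group means (lines), on linear axes from 0 for the 8 groups of 2 libraries. Pde5a and Pde10a are highest in the Arid1a/b DKO livers, Pde4d in agonist-treated Arid1a KO livers and tumours, and Pde3b is lowest in tumours.

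In Arid1a/b DKO livers 3 of the 8 members were called higher than in WT at 9 days and 0 lower (5 at an unadjusted p under 0.05), where 26.4% of all genes were called. The members' share, 3 of 8, is read against that background. Over all genes 7052 of 17831 had an unadjusted p under 0.05. The members' median log2 was 0.07, against 0.01 over all genes. Pde5a had 6.48 and 8.03 CPM in DKO and 2.17 and 2.99 CPM in WT livers (log2 1.48, SE 0.38, edgeR adjusted p = 0.0165). Pde10a, a dual enzyme best known from the striatum, had 2.61 and 3.03 CPM in DKO and 0.402 and 1.18 CPM in WT livers (log2 1.75, SE 0.58, edgeR adjusted p = 0.0463). Pde4d, a cAMP-specific enzyme tied to protein kinase A feedback, had 13.8 and 6.67 CPM in DKO and 4.02 and 5.60 CPM in WT livers (log2 1.08, SE 0.34, edgeR adjusted p = 0.0375). In all 3 the DKO livers lay above the WT livers, for Pde4d by a narrow gap in DKO replicate 2. How many of all genes separated likewise was not counted. Pde4b and Pde8a, the members at an unadjusted p under 0.05 without a call, were lower in DKO. Pde4b had 12.4 and 6.17 CPM in DKO and 19.2 and 18.1 CPM in WT livers (log2 -1.01, SE 0.44, edgeR adjusted p = 0.116). Pde8a had 31.1 and 47.9 CPM in DKO and 53.0 and 66.3 CPM in WT livers (log2 -0.59, SE 0.26, edgeR adjusted p = 0.112). With a library left out, the log2 ran from -1.585 to -0.62 for Pde4b and from -0.97 to -0.31 for Pde8a. Single libraries decide the 3 calls. Pde5a was not called without DKO replicate 2 (edgeR adjusted p = 0.0765) or WT replicate 1 (0.125), and its log2 ran from 1.27 to 1.74. Pde10a was called in 1 of 4 leave-outs, without WT replicate 2, and its log2 ran from 1.25 to 2.80. Pde4d was also called in 1 of 4, without DKO replicate 2, and its log2 ran from 0.47 without DKO replicate 1 to 1.48. Without WT replicate 1, 0 members were called.

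Against Arid1a KO at 9 days, which shares the DKO libraries with the comparison above, 1 of the 8 members was called higher and 0 lower (4 at an unadjusted p under 0.05), where 22% of genes were called. Over all genes 6454 of 17831 had an unadjusted p under 0.05. The members' median log2 was 0.56, against 0.02 over all genes. Pde5a had 6.48 and 8.03 CPM in DKO and 1.41 and 1.28 CPM in Arid1a KO livers (log2 2.44, SE 0.40, edgeR adjusted p = 0.00208). It was called without each library in turn. Pde10a had 2.61 and 3.03 CPM in DKO and 1.11 and 0.602 CPM in Arid1a KO livers and did not pass (log2 1.75, SE 0.59, edgeR adjusted p = 0.0547). Neither did Pde4d (log2 0.86, SE 0.34, edgeR adjusted p = 0.0920) nor Pde8a, with 31.1 and 47.9 CPM in DKO and 53.9 and 70.03 CPM in Arid1a KO livers (log2 -0.64, SE 0.26, edgeR adjusted p = 0.0965).

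Markers of other cells moved in the same livers. Against the 26.4% of all genes called between DKO and WT, 7 of 10 stellate and smooth muscle markers were called higher and 0 lower, and their summed level was 1614 and 822 CPM in DKO, 247 and 271 CPM in Arid1a KO and 119 and 169 CPM in WT livers. Acta2, smooth muscle actin, was higher (log2 5.49, SE 0.59, edgeR adjusted p = 0.000162). Of 8 endothelial markers 2 were called higher, a share near that of all genes, with sums of 650.3 and 629 CPM in DKO, 263 and 242 CPM in Arid1a KO and 243 and 440.3 CPM in WT livers. No marker of either list was at 0. Of 6 hepatocyte markers 3 were called lower and 0 higher, with sums of 12621 and 11800.2 CPM in DKO and 32083 and 13617 CPM in WT livers. Macrophage markers summed to 2533 and 1511 CPM in DKO and 656 and 1244 CPM in WT livers (1 of 8 called, higher). Neutrophil markers summed to 45.9 and 21.1 CPM in DKO and 7.48 and 7.64 CPM in WT livers (1 of 5 tested called, higher), and cholangiocyte markers to 426 and 158 CPM in DKO and 58.5 and 39.98 CPM in WT livers (2 of 6 called, higher). The part of these shifts in the Pde5a, Pde10a and Pde4d changes was not tested.

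**Figure D3:**
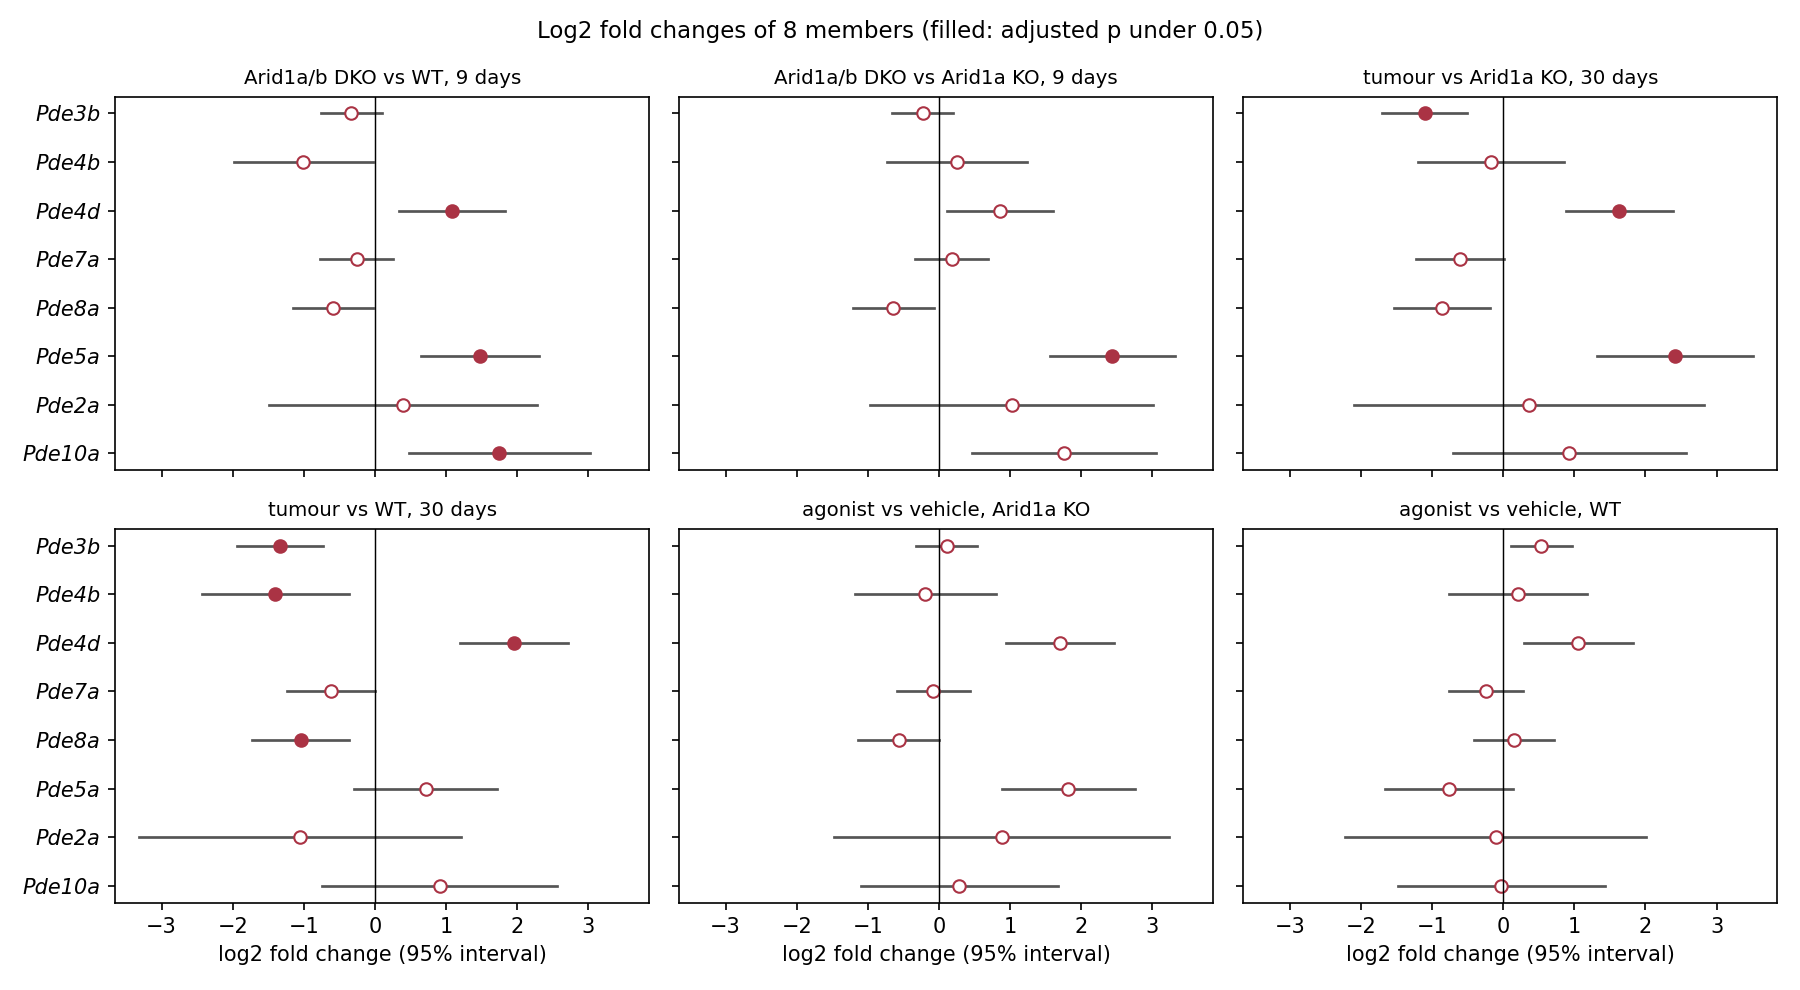
Log2 fold changes of the 8 members (points) with 95% intervals (lines) in 6 comparisons, where filled points have an adjusted p under 0.05 in edgeR. Pde5a has a log2 of 2.44 in Arid1a/b DKO against Arid1a KO and 2.42 in tumours against Arid1a KO, and Pde4d lies above 0 in all 6 panels.

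The agonist comparisons ask what the agonist does with and without Arid1a. They share the agonist libraries with the genotype comparison above and the vehicle libraries with the 30-day comparisons. In Arid1a KO livers 0 of 8 members were called (2 at an unadjusted p under 0.05, 2 in DESeq2), where 0.869% of genes were, and the median log2 was 0.20 against -0.02 over all genes. Over all genes 2297 had such a p and DESeq2 called 638. In WT livers 0 of 8 were called (2 at an unadjusted p under 0.05, 0 in DESeq2), where 0.028% of genes were, and the median was 0.07 against 0.00. There 653 of all genes had such a p and DESeq2 called 113. Pde4d had 19.0 and 14.3 CPM with agonist and 5.37 and 4.92 CPM with vehicle in Arid1a KO livers (log2 1.70, SE 0.35, edgeR adjusted p = 0.0539). In WT livers it had 8.70 and 8.48 CPM with agonist and 4.41 and 3.86 CPM with vehicle (log2 1.06, SE 0.35, edgeR adjusted p = 0.859). Agonist-treated livers lay above vehicle livers in each genotype. DESeq2 called the difference in Arid1a KO (adjusted p = 0.000746), and the difference between genotypes was not called.

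Pde5a had 3.02 and 2.22 CPM with agonist and 0.686 and 0.766 CPM with vehicle in Arid1a KO livers (log2 1.82, SE 0.42, edgeR adjusted p = 0.0847; DESeq2 adjusted p = 0.0159). In WT livers it had 1.93 and 1.04 CPM with agonist and 2.97 and 1.91 CPM with vehicle, and these groups overlapped. The test of the difference between genotypes called 0 of the 8 members (1 at an unadjusted p under 0.05, 1 in DESeq2), where 0.00561% of genes were called, 995 had such a p and DESeq2 called 126. That member was Pde5a (log2 2.58, SE 0.59, edgeR adjusted p = 0.313; DESeq2 adjusted p = 0.0378). In the same Arid1a KO livers stellate and smooth muscle markers summed to 607 and 316 CPM with agonist and 199.6 and 442 CPM with vehicle, which overlapped. Groups did not overlap for hepatocyte markers, at 10038 and 11277 CPM with agonist and 17711 and 14792 CPM with vehicle, macrophage markers, at 1186 and 697 CPM with agonist and 481 and 626 CPM with vehicle, or neutrophil markers, at 35.1 and 4.37 CPM with agonist and 1.60 and 2.59 CPM with vehicle. No marker of these 4 lists was called, and their part in the Pde4d and Pde5a values was not tested. Pde3b in WT livers had 155 and 221 CPM with agonist and 126 and 133 CPM with vehicle and was not called (log2 0.54, SE 0.20).

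Time after tamoxifen gave no call among the 8 members. Between 30 and 9 days 0 of 8 were called in Arid1a KO livers, where 0.0112% of genes were, and 0 of 8 in WT livers, where 0.0224% were. The test of whether time acted differently by genotype also called 0 of 8, and 0% of genes. Median log2 of the 8 was -0.10 in Arid1a KO and -0.02 in WT livers, against 0.01 and -0.01 over all genes. In each of these 3 comparisons 0 of 8 had an unadjusted p under 0.05 in edgeR and 0 were called by DESeq2.

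The tumours were set against 30-day vehicle livers of Arid1a KO and WT mice, although they carry no time point. Against Arid1a KO, 2 members were called higher and 1 lower of 8, where 25.1% of 18193 genes were called. An unadjusted p under 0.05 was found for 4 of the 8 members and for 6925 of all genes. The members' median log2 was 0.10, against 0.00 over all genes. Pde4d had 17.5 and 14.5 CPM in tumours and 5.37 and 4.92 CPM in Arid1a KO livers (log2 1.64, SE 0.34, edgeR adjusted p = 0.00555). Pde5a had 5.56 and 2.48 CPM in tumours and 0.686 and 0.766 CPM in Arid1a KO livers (log2 2.42, SE 0.50, edgeR adjusted p = 0.00530). Pde3b had 35.3 and 67.0 CPM in tumours and 115 and 105 CPM in Arid1a KO livers (log2 -1.10, SE 0.27, edgeR adjusted p = 0.0132). None of the 3 overlapped, though the share of all genes doing so was not counted. Pde8a had 23.1 and 42.7 CPM in tumours and 58.4 and 61.3 CPM in Arid1a KO livers and was not called (log2 -0.86, SE 0.31, edgeR adjusted p = 0.0625). Pde3b was not called without tumour replicate 1 (log2 -0.72, edgeR adjusted p = 0.0710), Arid1a KO replicate 1 (0.0812) or Arid1a KO replicate 2 (0.0554), while Pde4d and Pde5a were called without each library in turn.

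Against WT, 1 member was called higher and 3 lower of 8, where 30.2% of genes were called. An unadjusted p under 0.05 was found for 4 of the 8 members and for 7694 of all 18193 genes. The members' median log2 was -0.83, against 0.05 over all genes. Both comparisons share the tumour libraries. Pde4d had 17.5 and 14.5 CPM in tumours and 4.41 and 3.86 CPM in WT livers (log2 1.95, SE 0.35, edgeR adjusted p = 0.00181). Pde3b had 35.3 and 67.0 CPM in tumours and 126 and 133 CPM in WT livers (log2 -1.33, SE 0.28, edgeR adjusted p = 0.00401). Pde8a had 23.1 and 42.7 CPM in tumours and 66.5 and 70.1 CPM in WT livers (log2 -1.05, SE 0.31, edgeR adjusted p = 0.0250). Pde4b had 13.8 and 7.43 CPM in tumours and 37.0 and 18.9 CPM in WT livers (log2 -1.40, SE 0.47, edgeR adjusted p = 0.0420). The groups did not overlap in any of the 4, which is a description only, since the share of all genes doing so was not counted. Pde4d and Pde3b were called without each library in turn. Pde4b was not called without WT replicate 1 (log2 -0.89) or tumour replicate 2, and Pde8a, with a library left out, was called in 1 of 4 cases, without tumour replicate 2 (log2 -1.61), and not without tumour replicate 1 (log2 -0.68, edgeR adjusted p = 0.165).

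Pde5a was not called between tumours and WT livers, at 5.56 and 2.48 CPM in tumours and 2.97 and 1.91 CPM in WT livers. In the same tumours 4 of 8 endothelial markers were lower and 1 higher than in WT, where 30.2% of all genes were called. These markers summed to 164 and 94.3 CPM in tumours and 410.2 and 321 CPM in WT livers. Macrophage markers summed to 346 and 250.3 CPM in tumours and 494 and 162 CPM in WT livers (2 of 8 lower, 1 higher). Lymphocyte markers summed to 3.52 and 2.12 CPM in tumours and 12.3 and 8.54 CPM in WT livers (2 of 8 lower, 0 higher). Neutrophil markers went the other way, at 13.4 and 18.3 CPM in tumours and 6.71 and 1.18 CPM in WT livers (1 of 5 tested higher). Stellate and smooth muscle markers summed to 240.3 and 179.7 CPM in tumours, 199.6 and 442 CPM in Arid1a KO and 172 and 143 CPM in WT livers. Hepatocyte markers summed to 16375 and 12156 CPM in tumours and 18611 and 17914 CPM in WT livers (1 of 6 lower, 0 higher). Cholangiocyte markers summed to 140.2 and 62.5 CPM in tumours and 49.7 and 46.9 CPM in WT livers (2 of 6 higher, 0 lower). Against Arid1a KO, where 25.1% of all genes were called, 4 of 8 macrophage markers were lower and 1 higher. Lower there, with 0 higher, were 3 of 8 endothelial, 2 of 8 lymphocyte, 2 of 10 stellate and smooth muscle and 1 of 6 hepatocyte markers. Higher, with 0 lower, were 1 of 5 tested neutrophil and 1 of 6 cholangiocyte markers. The part of these shifts in the member changes was not tested.

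Pde7a and Pde2a were called in none of the 13 comparisons. Pde7a, a cAMP-specific enzyme, ranged from 6.37 CPM in tumour replicate 2 to 17.4 CPM in WT replicate 1 at 9 days. Pde2a, a dual enzyme that cGMP stimulates, had 3 to 35 counts per library and 0.109 to 1.25 CPM, and shares 3955 bases of exon with a same-strand gene model (Gm45837), so its level is uncertain. Overlap with antisense transcripts touched 138 and 157 bases of Pde9a, 55 of Pde5a and 48 of Pde7a, where reads cannot be told apart if counting ignored strand.

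Of the 14 phosphodiesterase genes that are not members, 12 were tested. In Arid1a KO against WT livers 0 of 12 were called at 9 days and 0 at 30 days. With the agonist 1 of 12 was called higher, where 4.95% of all genes were called. It was Pde6h, at 0.773 and 1.16 CPM in Arid1a KO and with 0 counts in either WT liver. In DKO against WT, 1 of 12 was higher and 1 lower, below the share of all genes (26.4%): Pde3a, the cardiac and vascular relative of Pde3b, had 11.7 and 5.05 CPM in DKO and 2.74 and 2.93 CPM in WT livers (log2 1.56, SE 0.47, edgeR adjusted p = 0.0325), and Pde6h was lower. In DKO against Arid1a KO 2 of 12 were higher and 1 lower, where 22% of all genes were called. In tumours against WT 1 of 12 was higher and 0 lower, where 30.2% of all genes were called. It was Pde6d, a prenyl-binding subunit, at 12.7 and 18.0 CPM in tumours and 6.71 and 9.94 CPM in WT livers (log2 0.88, SE 0.29, edgeR adjusted p = 0.0390). Against Arid1a KO 1 of 12 was higher in tumours and 0 lower, where 25.1% of all genes were called.

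Of 9 tested genes that make cGMP, 3 were called higher in DKO than in WT livers and 1 lower, where 26.4% of all genes were called, with a median log2 of 1.22 against 0.01 over all genes. Gucy1a1, a subunit of the nitric oxide receptor, had 35.2 and 12.6 CPM in DKO and 6.11 and 9.52 CPM in WT livers (log2 1.61, SE 0.44, edgeR adjusted p = 0.0230). Its partner Gucy1b1 rose too (log2 1.22, SE 0.39, edgeR adjusted p = 0.0408). Npr2, the receptor of C-type natriuretic peptide, had 14.5 and 21.3 CPM in DKO and 129 and 218 CPM in WT livers (log2 -3.27, SE 0.39, edgeR adjusted p = 0.00033). Npr2 was likewise called lower in Arid1a KO than in WT with the agonist, at 15.1 and 34.3 CPM in Arid1a KO and 125 and 150.05 CPM in WT livers (log2 -2.47, SE 0.38, edgeR adjusted p = 0.00786).

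In tumours against WT 2 of the 9 were higher and 4 lower, where 30.2% of all genes were called. Gucy2c, the guanylin receptor of gut epithelium, had 121 and 33.6 CPM in tumours and 1.34 and 0.681 CPM in WT livers (log2 6.32, SE 1.48, edgeR adjusted p = 0.0078). Npr1, the receptor of atrial natriuretic peptide, had 7.37 and 4.60 CPM in tumours and 29.3 and 20.2 CPM in WT livers (log2 -2.06, SE 0.41, edgeR adjusted p = 0.0034). Gucy1a1 was lower in tumours, at 3.40 and 1.31 CPM in tumours and 7.29 and 7.40 CPM in WT livers (log2 -1.70, SE 0.54, edgeR adjusted p = 0.0321), while in DKO it was higher than in WT at 9 days.

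Among 18 tested genes of cAMP synthesis and its receptors, 4 were higher and 1 lower in DKO than in WT livers, a share near the 26.4% of all genes. Adcy5, an adenylyl cyclase of heart and striatum, had 72.3 and 67.8 CPM in DKO and 2.41 and 2.90 CPM in WT livers (log2 4.71, SE 0.28, edgeR adjusted p = 9.03e-06). Adcy6, its close relative, had 137 and 149 CPM in DKO and 48.2 and 52.2 CPM in WT livers (log2 1.51, SE 0.29, edgeR adjusted p = 0.00435). Gcgr, the glucagon receptor, had 231 and 223 CPM in DKO and 414 and 444 CPM in WT livers (log2 -0.91, SE 0.18, edgeR adjusted p = 0.00435). In tumours against WT 7 of 19 were higher and 2 lower, where 30.2% of all genes were called, among them Adcy9, with 26.1 and 24.96 CPM in tumours and 71.4 and 52.2 CPM in WT livers (log2 -1.27, SE 0.22, edgeR adjusted p = 0.00163).

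**Figure D4:**
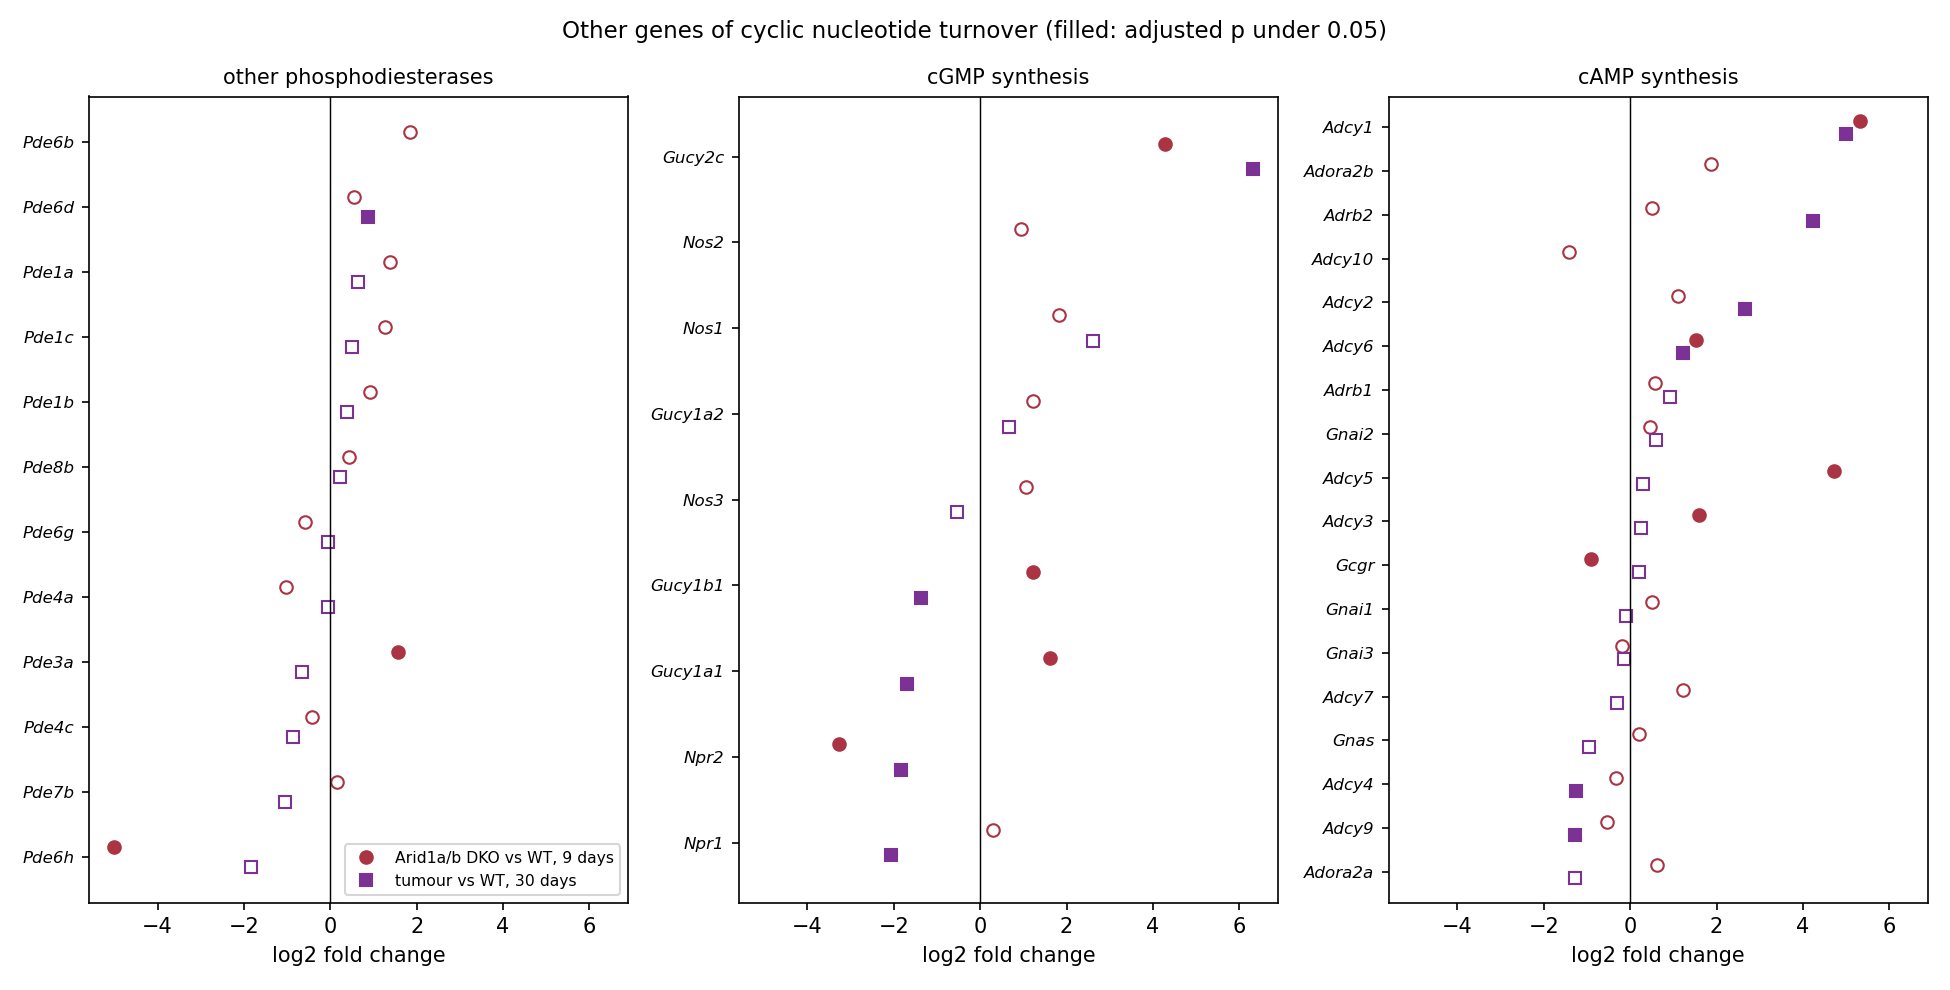
Log2 fold changes of other phosphodiesterases and of genes of cGMP and cAMP synthesis in Arid1a/b DKO against WT at 9 days (circles) and tumours against WT at 30 days (squares), filled where the edgeR adjusted p is under 0.05. Points are left out where either group has 3 counts or fewer, and Adcy5 lies at 4.71 in DKO while Gucy1a1 and Gucy1b1 lie above 0 in DKO and below 0 in tumours.

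Of 17 cAMP effectors, 3 were higher and 4 lower in DKO than in WT livers and 0 were higher and 2 lower in tumours than in WT livers, where 26.4% and 30.2% of all genes were called. Rapgef4, the exchange factor EPAC2, fell in DKO (log2 -2.36, SE 0.33, edgeR adjusted p = 0.000747), and Prkar2a, a regulatory subunit of protein kinase A, fell in DKO (log2 -0.78, SE 0.20, edgeR adjusted p = 0.0159) and in tumours (log2 -1.22, SE 0.27, edgeR adjusted p = 0.00541). Of 12 genes that cAMP induces in liver, 3 were higher and 3 lower in DKO than in WT livers (26.4% of all genes called). Irs2 and Nr4a1 were higher (log2 2.78 and 2.705), and Pck1, the gluconeogenic carboxykinase, was lower (log2 -3.35, SE 0.75, edgeR adjusted p = 0.00894). In tumours 3 of the 12 were higher and 2 lower than in WT (30.2% of all genes called). No gene of these lists was called in Arid1a KO against WT at 9 or 30 days.

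Across the 14 livers, Pde9a levels ran most like those of Rnf39 (Pearson r = 0.957), Dhx36 (0.949), Fbxo44 (0.931), Dtnb (0.921) and Lsr (0.920), and Pde6c levels most like those of Tmem17 (0.928), Slc38a7 (0.918), Rab7 (0.913), Rpl29 (0.895) and Fchsd2 (0.890). Rnf39 had 0.593 and 0.361 CPM in Arid1a KO and 13.4 and 17.4 CPM in WT livers at 9 days. Slc38a7 had 51.6 and 65.9 CPM in Arid1a KO and 29.8 and 34.8 CPM in WT livers. Among members, Pde9a and Pde4b had an r of 0.84, and Pde5a and Pde10a of 0.76. Pde9a and Pde6c had an r of -0.77, which follows in part from choosing them for opposite changes in these libraries. These 14 libraries share genotype groups and depth order, so the values describe likeness only.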

How the data were processed

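RNA-seq counts of 16 libraries in 8 groups of 2 were used. The values are whole counts of reads per gene, as deposited by the authors. Per the submitters' processing notes, fastp, STAR 2.7.3, featureCounts and GRCm38.p6 (mm10) were used. For the annotation release and strand setting: not given in the sources used here. Total counts ranged from 7.57 to 47.77 M. The authors' normalized table, the counts times 1 factor per library, was not used.

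All 14 livers entered 1 fit with edgeR 4.0.16 under R 4.3.3: filterByExpr, TMM factors, 1 coefficient per group and the quasi-likelihood F test, with 7 residual degrees of freedom. Comparisons with tumours used all 16 libraries (8 residual degrees of freedom). P-values were adjusted by Benjamini-Hochberg over all genes tested, and measure the spread between these biological replicates. Each SE was derived from the size of the fold change and its F statistic. Log2 changes are printed for member comparisons with an unadjusted p under 0.05, and for Pde9a and Pde6c in comparisons of Arid1a loss with WT as a description. No test of Pde9a or Pde6c is given. Lengths and positions come from GENCODE M21.

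The members and gene lists were chosen with earlier results of these data known. Genes of a list could be named where they were among the 4 called genes with the smallest p in some comparison. Genes with patterns like Pde9a and Pde6c had a mean of at least 1 CPM. Alternatives were RLE scaling, no filter, DESeq2 1.42.0, a replicate block, only the libraries compared, the 9-day WT livers as control of the WT agonist livers, and leaving out each library. The procedure was tested on simulated data. Figures used matplotlib 3.10.9 (Python 3.11.15). The photoreceptor marker list is not reported here.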

Additional observations from a re-analysis of the deposited data

How the results depend on the processing

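With 2 libraries per group, only large changes could be called, and low levels rest on few counts. Counts of members called stayed within 1.5 times those given above under each alternative, except as follows. The cause was not tested unless stated. Without the low-count filter 1 member was called in Arid1a KO against WT at 9 days, 1 at 30 days and 2 with the agonist, 2 in DKO against Arid1a KO, 2 for the agonist in Arid1a KO and 1 for the difference between genotypes. DESeq2 called 1 in Arid1a KO against WT at 30 days, 3 with the agonist, 2 in DKO against Arid1a KO, 2 for the agonist in Arid1a KO and 1 for the difference between genotypes. With the replicate block 5 were called in DKO against WT, 2 in DKO against Arid1a KO, 1 for the agonist in Arid1a KO and 2 in Arid1a KO against WT with the agonist. Counts over all genes rose too. Under the block they were 5344 against 4710, 4510 against 3928, 207 against 155 and 1146 against 883, in the same order. In DKO against Arid1a KO they were 4896 without the filter and 4616 in DESeq2, against 3928. For the difference between genotypes they were 493 without the filter, against 1. To see whether replicate numbers pair the samples, the log2 difference of replicate 1 from replicate 2 was taken per gene in each group. Correlations of these differences over 28 pairs of groups ran from -0.106 to 0.356, with 12 over 0.1. Since not every correlation was over 0.1, the numbers were not taken to pair the samples. Replicate 1 was also the shallower library in each group. With only the libraries compared, which leaves fewer residual degrees of freedom, 1 was called in DKO against WT and 1 in tumours against Arid1a KO. In DKO against WT this setting called 3523 of all genes, against 4710. Leaving out each library gave 0 to 2 in DKO against WT, 1 to 3 in DKO against Arid1a KO, 2 to 4 in tumours against Arid1a KO, 2 to 4 in tumours against WT, and 0 in the other 9 comparisons. Taking the 9-day WT livers as control left 0 members called for the agonist in WT.

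No direction turned in 392 recomputed values of the 43 member results that were followed. These include results of Pde9a and Pde6c, which were chosen on these data. Results of the other members were followed for their unadjusted p under 0.05, so a kept direction is no further support. The list genes that follow were likewise taken because they were called. For 127 results of list genes, 914 of 1143 recomputed values kept the call, 229 lost it and 0 turned. The count of all genes called rose without the filter, to 1018 against 101 in Arid1a KO against WT at 9 days, 942 against 92 at 30 days, 1353 against 155 for the agonist in Arid1a KO and 2468 against 883 in Arid1a KO against WT with the agonist. With only the libraries compared it went either way. It fell to 0 against 92 in Arid1a KO against WT at 30 days and to 9 against 155 for the agonist in Arid1a KO. In tumours it fell to 1297 against 4573 (against Arid1a KO) and to 3388 against 5489 (against WT). It rose to 195 against 101 in Arid1a KO against WT at 9 days and to 69 against 4 between 30 and 9 days in WT livers. Leaving out a library gave 17 to 33 genes in Arid1a KO against WT at 9 days, 1 to 177 at 30 days, 1855 to 3374 in DKO against WT (4710 with all), 1618 to 2750 in DKO against Arid1a KO (3928 with all), 1799 to 5443 in tumours against Arid1a KO and 2713 to 6356 in tumours against WT.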
